A study of Mus musculus with 4 samples.

Results

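The genes described here are 10 that read highest in a day 6 reprogramming culture labelled as a Sumo2 knockdown: Prob1, Ly6g6c, Cyyr1, Cd59a, Fmn2, Sv2b, Sema6a, Fndc4, Nrp2 and Alox15. They were chosen by name from probe sets with a single gene symbol, because each read at least 2-fold above the Firefly knockdown culture and above both lines of induced pluripotent stem cells (iPSC). They are 10 of 22180 genes with such a probe set, and 11 probe sets carry their names. The study measured total RNA on 4 mouse arrays, 1 per condition, so no value has a replicate and no p-value is given. Both day 6 samples were bulk cultures of reprogrammable mouse embryonic fibroblasts (repMEFs), which turn on reprogramming factors when doxycycline is added, 6 days into doxycycline. One carried a knockdown of Firefly, a luciferase gene that mouse cells lack, and the other a knockdown of Sumo2. The remaining samples were an iPSC line labelled 38 h and one labelled 10 day, both derived from fibroblasts with Sumo2 knockdown; the labels do not say what the time counts. The labels give every sample the strain Black6-129X1/SvJ, a pool of male and female, medium for embryonic stem cells with 20% serum, ascorbic acid and doxycycline. Each iPSC sample is 1 line, and a day 6 culture is a mixture in which fewer cells of a type and less RNA per cell cannot be told apart.

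The Sumo2 transcript itself read 10.65 with Firefly knockdown and 10.56 in the culture labelled Sumo2 knockdown on the log2 scale, or 93.8% of the control. Its RNA was therefore close to the control level on this array, and each direction given below depends on the label alone. Values are log2 expression as the authors deposited them. The measuring floor is the median of all probe sets with 1 gene symbol, 6.64 to 6.67 on the 4 arrays, and a gene was counted as measured when it reached the floor on at least 1 of the arrays compared. A fold marked "at least" counts a value below the floor as equal to it.

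Fibroblasts that are driven towards pluripotency lose mesenchymal genes, take on epithelial genes and then turn on the pluripotency network. Some genes are known to rise only on the way and to be low again in stable iPSC. Most of the 10 genes encode proteins known to sit at membranes. The share of such proteins over all genes was not counted, so nothing is read from this. Ly6g6c and Cd59a encode small Ly6/uPAR proteins held on the cell surface by a lipid anchor, and Cyyr1, Sema6a, Nrp2, Fndc4 and Sv2b encode proteins that span a membrane. Fmn2, a formin, builds actin filaments, Alox15 encodes a lipoxygenase that oxidises fatty acids, and Prob1 encodes a proline-rich basic protein.

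All 10 genes were measured on the array of the culture labelled Sumo2 knockdown, where they read from 7.04 (Sv2b) to 10.32 (Ly6g6c). They stood above the Firefly culture by a median log2 difference of 1.26, from 1.10 (Nrp2) to 2.42 (Prob1). This is the difference that chose them, so that all 10 were at least 2-fold higher is no finding; over 11740 measured genes 0.945% were higher by that much and 0.230% lower. The rule also asked for values above both lines, so nothing is read from how far above them the genes stood. As a description, 9 of the 10 were at least 2-fold above the 38 h line (8.59% of 12277 genes measured there were) and 9 above the 10 day line (8.94% of 12344), all but Fmn2. Over 12735 genes measured on any array, 17 (0.133%) met the whole pattern, and 10 (0.0785%) read at least 2-fold above each of the other 3 arrays, 9 of them in the set described here. The same count was 21 genes (0.165%) for the Firefly array, 48 (0.377%) for the 38 h array and 187 (1.47%) for the 10 day array.

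**Figure D1:**
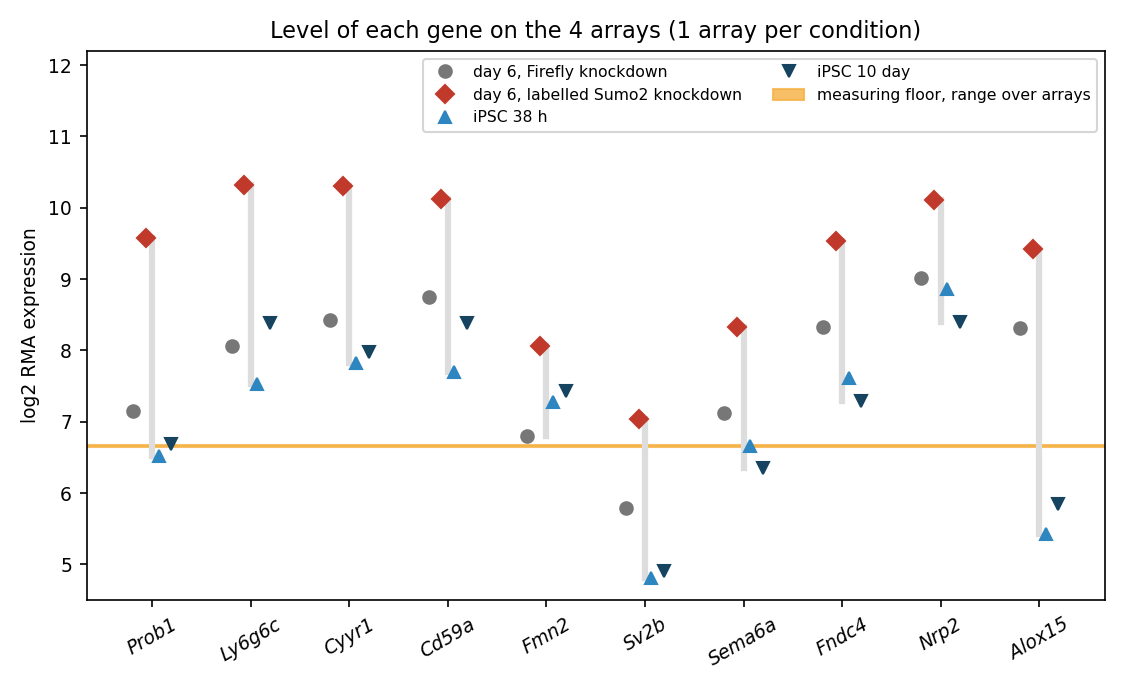
Log2 RMA expression of the 10 genes (x axis) on the 4 arrays, 1 point per array; grey bars span the lowest to the highest array and the orange band is the measuring floor, 6.64 to 6.67. The array labelled Sumo2 knockdown is the highest for each gene, and Sv2b is the gene whose other 3 values all lie below the floor.

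RefSeq's promoter table (build GRCm38.p6, 250 bases before to 50 after a transcript start) held 11 promoters of 7 of the genes. Sequences of 4 are shown as examples of windows rich and poor in CpG pairs among genes that read high together. They are written 5′ to 3′ on the gene's strand. Capitals mark every match, on either strand, to 10 short motifs that were searched.
Ly6g6c, chr17:35067075-35067374, + strand: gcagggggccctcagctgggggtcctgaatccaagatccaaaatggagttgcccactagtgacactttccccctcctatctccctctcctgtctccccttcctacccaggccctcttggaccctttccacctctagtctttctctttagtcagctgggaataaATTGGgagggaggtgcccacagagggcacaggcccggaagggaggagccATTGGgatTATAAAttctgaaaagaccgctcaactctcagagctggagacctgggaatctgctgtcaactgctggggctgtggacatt
Cd59a, chr2:104095551-104095850, + strand: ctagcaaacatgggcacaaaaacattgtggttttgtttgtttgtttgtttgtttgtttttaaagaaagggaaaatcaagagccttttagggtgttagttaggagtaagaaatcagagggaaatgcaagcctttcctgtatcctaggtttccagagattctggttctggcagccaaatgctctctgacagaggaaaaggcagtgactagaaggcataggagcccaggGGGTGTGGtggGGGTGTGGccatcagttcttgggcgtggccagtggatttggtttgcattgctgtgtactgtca
Nrp2, chr1:62703067-62703366, + strand: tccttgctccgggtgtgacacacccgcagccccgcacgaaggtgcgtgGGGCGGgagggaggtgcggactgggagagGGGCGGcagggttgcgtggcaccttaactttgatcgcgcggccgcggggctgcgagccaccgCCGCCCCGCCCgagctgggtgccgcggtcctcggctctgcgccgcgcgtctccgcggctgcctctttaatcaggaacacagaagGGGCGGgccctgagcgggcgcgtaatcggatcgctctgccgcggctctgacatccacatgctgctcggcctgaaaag
Fmn2, chr1:174501575-174501874, + strand: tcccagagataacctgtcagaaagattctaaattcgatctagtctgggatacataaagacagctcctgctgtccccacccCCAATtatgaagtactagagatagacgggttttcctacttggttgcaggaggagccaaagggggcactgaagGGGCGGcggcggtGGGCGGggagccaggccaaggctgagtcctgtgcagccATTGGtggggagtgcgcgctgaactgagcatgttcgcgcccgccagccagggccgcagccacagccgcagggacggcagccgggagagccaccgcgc

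The 4 windows differ in make-up. Counted as observed over expected CpG pairs, Nrp2 had a ratio of 0.992 and 70.7% G and C bases, and Fmn2 0.616 and 61.0%. Cd59a was poor in CpG, with a ratio of 0.0725 and 45.7%, as was Ly6g6c, with 0.0874 and 55.3%. The medians over 32851 promoters were 0.384 and 52.7%. Of the 7 genes, 2 (Nrp2 and Fmn2) reached a ratio of 0.6 together with 50% G and C in a window. The share over all promoters, counted by promoter and not by gene, was 33.5%. In Ly6g6c, the capitals are a TATA box (TATAAA) that starts 30 bases before the transcript start and the CCAAT box (CCAAT, read as ATTGG on this strand) at 87 and 38 bases before it. In Cd59a they are a pair of KLF elements (GGGTGTGG) that start 24 and 13 bases before the start, a motif in 3.56% of all promoters. Nrp2 had 5 GC boxes (GGGCGG), of which a pair on the other strand shares 1 base, and Fmn2 had 2 GC boxes and 2 CCAAT boxes.

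No motif was common to the set. By window, a GC box was in 3 of the 11 (35.7% of all promoters), a CCAAT box in 2 (37.4%) and a TATA box in 3 (13.6%). A TEAD element (CATTCC) was in 2 (14.7%), the E-box CACGTG in 1 (7.15%) and the KLF element in 1 (3.56%). Counted by gene in the same order, 3, 2, 2, 1, 1 and 1 of the 7 held them. The TATA matches of Sv2b were TTTATA, the form on the other strand, and started 50 and 232 bases before the start in different windows. These letters were not in any of the 11 windows: the AP-1 element TGANTCA (7.81% of all promoters), the cyclic AMP element TGACGTCA (1.79%), the octamer ATGCAAAT (1.74%) and the GRHL element AACCNGTT (2.09%).

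Ly6g6c is a gene of the Ly6/uPAR family and, like all 10, was chosen by its day 6 difference. It read 8.06 with Firefly knockdown, 10.32 in the culture labelled Sumo2 knockdown, 7.53 in the 38 h line and 8.38 in the 10 day line. The Sumo2-labelled array thus stood 4.79-fold above Firefly, 6.94-fold above 38 h and 3.83-fold above 10 day, while the 10 day line read higher than the Firefly culture. Cd59a, which encodes an inhibitor of the membrane attack complex of complement, read 8.75, 10.13, 7.70 and 8.38 in the same order. Its Sumo2-labelled value was 2.59-fold above Firefly, 5.37-fold above 38 h and 3.35-fold above 10 day. Its close copy Cd59b was below the floor on all 4 arrays (5.53, 5.64, 5.55 and 6.50), and whether the Cd59a probe set also reads Cd59b RNA was not tested.

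Relatives of the 10 genes are given here and below by their day 6 difference; few genes of any kind reached 2-fold in it (1.18% of all measured genes, either way), and the 10 were chosen by it, so counts of 0 among relatives set nothing apart. Of 12 other Ly6/uPAR genes measured at day 6, 9 read above and 3 below Firefly in the Sumo2-labelled culture, 0 by 2-fold, with a median log2 difference of 0.14 against 0.02 over all measured genes. Lypd4 (0.46, or 0.03 counted from the floor), Ly6c2 (0.45) and Lynx1 (-0.40) differed most. Ly6g6e, a neighbour of Ly6g6c in the genome, had another course, with 6.73 and 6.98 at day 6 and 8.38 and 9.71 in the 38 h and 10 day lines. Of 12 complement regulators with a probe set, Cd59a included, 7 lay below the floor in each day 6 culture. All 4 others that were measured read lower in the Sumo2-labelled culture (median -0.53). They were Serping1 (-1.16), which encodes the C1 inhibitor, Cd55 (-0.71), which encodes decay-accelerating factor, Clu (-0.36) and Cr1l (-0.13). The median absolute difference over all measured genes was 0.19.

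Cyyr1, which encodes a cysteine- and tyrosine-rich membrane protein, read 8.42 with Firefly knockdown, 10.31 in the Sumo2-labelled culture, 7.83 in the 38 h line and 7.98 in the 10 day line. The 3 lower values lay within 0.59 of each other on the log2 scale, and the Sumo2-labelled one was 3.70-fold above the nearest. A second Cyyr1 probe set read 4.63, 4.57, 4.40 and 4.08, below the floor on every array, and does not show the pattern. With the median of both probe sets, the day 6 difference of Cyyr1 was 0.91 in place of 1.89, under 2-fold.

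Sema6a and Nrp2 belong to the semaphorin system, which guides axons and vessels. Semaphorins are ligands, plexins their receptors and neuropilins co-receptors. Sema6a, a semaphorin that stays in the membrane, read 7.12, 8.33, 6.65 and 6.35 on the Firefly, Sumo2-labelled, 38 h and 10 day arrays. It was 2.31-fold above Firefly, and at least 3.19-fold and 3.17-fold above the lines, both of which lay below the floor. Nrp2, a co-receptor for secreted semaphorins and for VEGF-C, read 9.01, 10.11, 8.86 and 8.39. That was 2.15-fold above Firefly, the smallest day 6 difference of the 10, and 2.38-fold and 3.30-fold above the lines.

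Of 19 other semaphorin, neuropilin and plexin genes measured at day 6, 9 read higher and 10 lower in the Sumo2-labelled culture, 0 by 2-fold, with a median log2 difference of -0.04. The nearest to the threshold was Sema3e, a secreted semaphorin, with 7.06, 8.01, 7.11 and 6.27, a day 6 difference of 0.95. Plxnb1 (0.93, or 0.83 from the floor) read higher still in the lines, at 8.38 and 8.06, and Sema5a differed by -0.70. Nrp1, the other neuropilin, read 7.00 and 6.53 at day 6 and 7.65 and 7.66 in the lines, so it was higher in iPSC where Nrp2 was lower. Among 6 measured VEGF genes and receptors, 3 were higher and 3 lower (2 and 4 after cyclic loess scaling). Vegfd, one of the lymphangiogenic growth factors, differed by -1.30, Flt4, the receptor of VEGF-C, differed by 0.87 (0.63 from the floor) and Nrp1 by -0.47 (-0.33 from the floor).

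Sv2b, a glycoprotein of synaptic vesicles, was the dimmest of the 10. It read 5.80 with Firefly knockdown, 7.04 in the Sumo2-labelled culture, 4.81 in the 38 h line and 4.91 in the 10 day line. Only the Sumo2-labelled value reached the floor, so the folds are at least 1.32 against Firefly, 1.31 against 38 h and 1.30 against 10 day, and Sv2b was the gene of the 10 that did not reach 2-fold when counted from the floor. Its relative Sv2c ran the other way, with 7.81 and 7.01 at day 6, and Sv2a was below the floor on all 4 arrays. Of 13 other measured synaptic vesicle genes, 5 were higher and 8 lower, 0 by 2-fold (median -0.08), among them Sv2c (-0.80), Vamp2 (-0.39) and Rab3b (0.31).

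Fmn2, a formin known for spindle positioning in the oocyte, had the narrowest margin. It read 6.79, 8.06, 7.27 and 7.44 in the same order of arrays. The Sumo2-labelled value was 2.41-fold above Firefly but only 1.73-fold above 38 h and 1.54-fold above 10 day, and the Firefly culture, not an iPSC line, was the lowest. The other measured formin, Spire and profilin genes numbered 15, with 6 higher and 9 lower (4 and 11 after cyclic loess), 0 by 2-fold and a median of -0.20. Fhdc1 (0.83, or 0.56 from the floor), Fhod3 (-0.57) and Spire2 (0.37), which encodes a partner of Fmn2 in actin assembly, differed most.

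Fndc4, a relative of the irisin precursor gene Fndc5, read 8.32 with Firefly knockdown, 9.53 in the Sumo2-labelled culture, 7.62 in the 38 h line and 7.29 in the 10 day line. It was 2.31-fold above Firefly, 3.78-fold above 38 h and 4.72-fold above 10 day. Fndc5 itself read 7.71, 7.85, 7.85 and 7.63 and so was nearly level. Of 6 other measured genes of this name, 5 were lower and Fndc5 higher (median -0.21), 0 by 2-fold, with Fndc11 (-0.55), Fndc1 (-0.53) and Fndc3b (-0.31) first by size.

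Alox15 was measured in both day 6 cultures and in neither iPSC line. It read 8.32 with Firefly knockdown and 9.43 in the Sumo2-labelled culture, against 5.42 in the 38 h line and 5.84 in the 10 day line, both below the floor. The Sumo2-labelled culture stood 2.16-fold above Firefly and at least 6.82-fold and 6.77-fold above the lines. The other measured lipoxygenase, leukotriene and prostaglandin genes numbered 6 and all read lower, 0 by 2-fold (median -0.24). They were led by the phospholipase gene Pla2g4a (-0.74), Alox5 (-0.57) and Alox5ap (-0.41, or -0.26 from the floor). The rest, Gpx4 and Ptgs2 (both -0.07) and Lta4h (-0.0004), were nearly level. Alox12 was below the floor in both day 6 cultures (6.14 and 6.38).

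Prob1 showed the largest day 6 difference of the set. It read 7.15 with Firefly knockdown, 9.57 in the Sumo2-labelled culture, 6.51 in the 38 h line and 6.68 in the 10 day line. That was 5.34-fold above Firefly, at least 7.53-fold above 38 h, where it lay below the floor, and 7.39-fold above 10 day. In the day 6 comparison Prob1 ranked 5 of 11740 measured genes and Ly6g6c 10, while Nrp2 ranked 87. By the gap to the next highest array, Prob1, Ly6g6c and Cyyr1 ranked 1, 2 and 3 of 12735. Both ranks use the values by which the genes were chosen, so nothing is read from them.

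**Figure D2:**
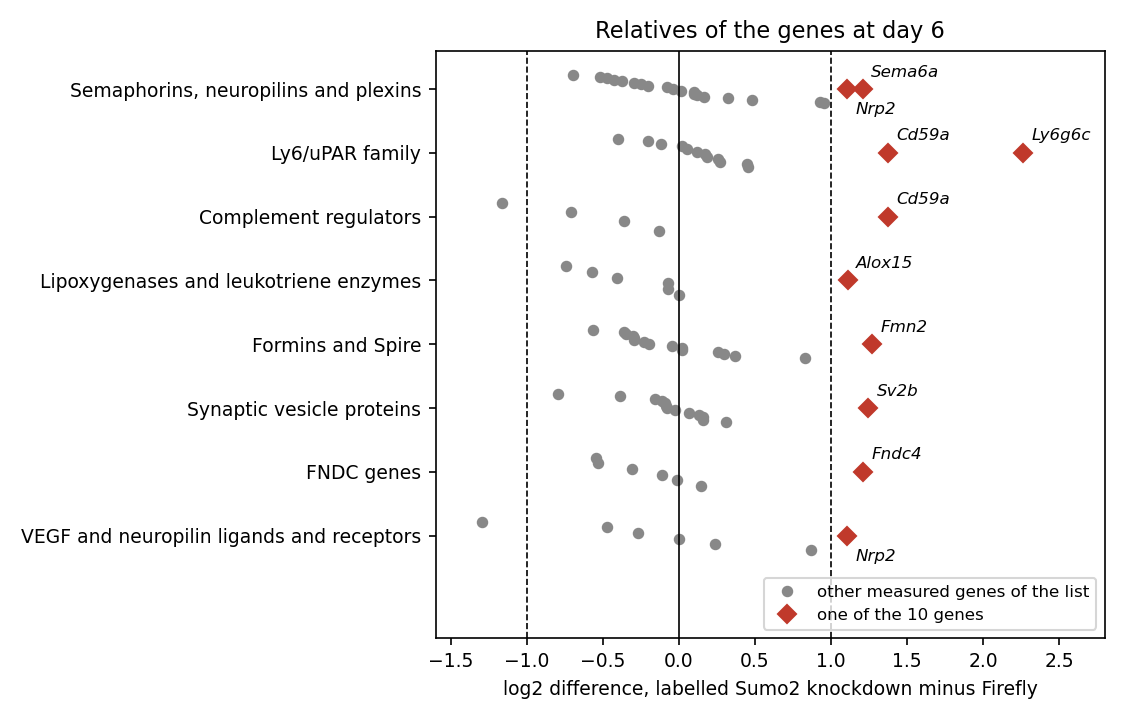
Log2 difference of the Sumo2-labelled minus the Firefly array (x axis) for each measured gene of 8 family lists (rows), with 8 of the 10 genes as red diamonds (Prob1 and Cyyr1 are in none of these lists) and their relatives as grey points; dashed lines mark 2-fold and vertical offsets only separate points. The diamonds lie right of the 2-fold line because they were chosen by this difference; the relatives' medians run from -0.53 to 0.14.

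Differences that do not involve the Sumo2-labelled array separate the genes into a larger group and exceptions. Leaving out Sv2b, which was below the floor on these 3 arrays, 7 of 9 genes read higher in the Firefly culture than in both iPSC lines, against 37.2% of all 12735 measured genes. The rule put both sides below the Sumo2-labelled array without ordering them. Among the 7 other genes that met the same rule, 1 read higher in Firefly than in both lines (Mir669h) and 5 read lower than in both. Fmn2 was lower in Firefly than in both lines (differences of -0.48 and -0.64), as 52.6% of measured genes were. Ly6g6c lay between them, with differences of 0.53 from the 38 h and -0.32 from the 10 day line. In Firefly, 2 of 9 of these genes stood 2-fold above the 38 h line, Alox15 (at least 3.16-fold) and Cd59a (2.07-fold), against 10.8% over all. Against the 10 day line these were Alox15 (at least 3.14-fold) and Fndc4 (2.04-fold), 2 of 9, with 11.1% over all. With so few genes, nothing is read from 2 of 9 beside these shares.

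The contrast between the iPSC lines took no part in the rule beyond both lying below. Of 7 genes measured in it, 0 differed by 2-fold, and over 11754 measured genes 3.22% did. Ly6g6c differed most (-0.86, higher in the 10 day line), followed by Cd59a (-0.68), while Nrp2 was higher in the 38 h line by 0.47 and Fndc4 by 0.32. Of the 7 genes, 5 lay within 1.5-fold in the lines, against 89.5% of genes measured there, and those outside were Ly6g6c and Cd59a. Sv2b, Sema6a and Alox15 were below the floor in both lines.

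**Figure D3:**
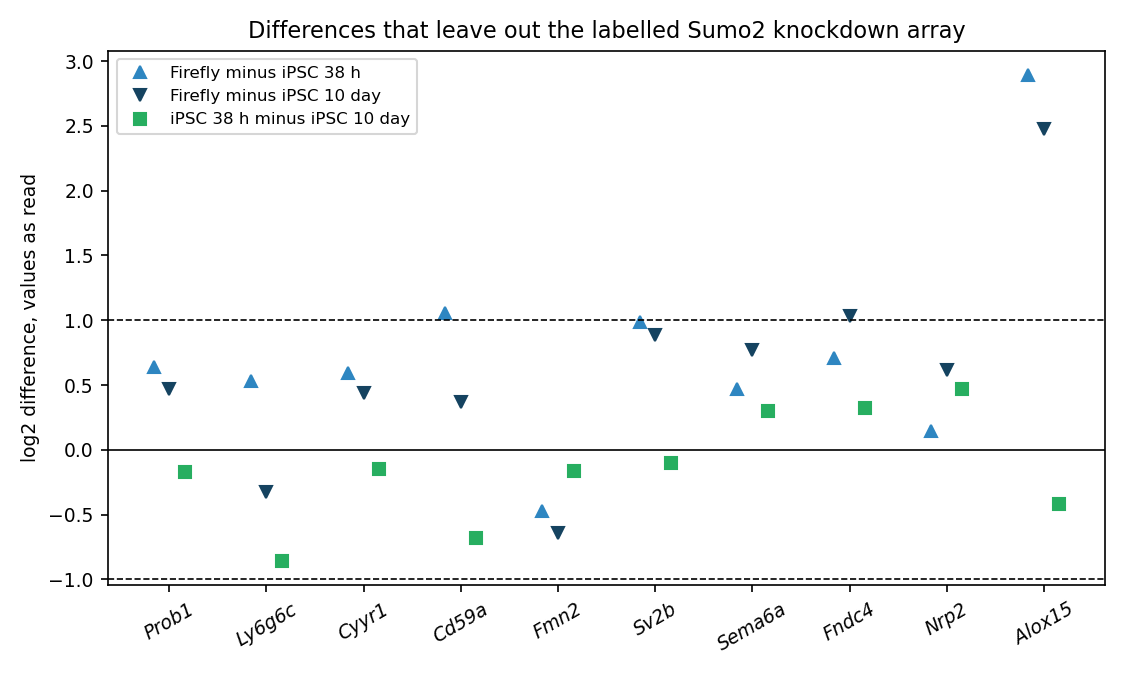
Log2 differences, as read, between Firefly and each iPSC line (triangles) and between the lines (squares) for the 10 genes; dashed lines mark 2-fold. Alox15 reads 2.89 and 2.48 above the lines, where it lies below the floor, and Fmn2 is negative against both.

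Most genes that were 2-fold higher in the Sumo2-labelled culture did not meet the pattern. Of 111 genes at least 2-fold above Firefly, 17 (15.3%) read above both lines and so highest of all arrays. Over all 12735 measured genes, 15.7% read highest in the Sumo2-labelled culture, a like share, so nothing is read from the 15.3%. Of the 111, 79 (71.2%) read below both lines and 40 of them (36.0% of the 111) at least 2-fold below both. No share over all genes was counted for these. Besides the 10 genes, 7 others met the pattern. The named ones were Ctnnd2, a catenin gene of neurons (6.65, 7.81, 6.82 and 7.18 on the Firefly, Sumo2-labelled, 38 h and 10 day arrays), the zinc finger gene Bcl11b (6.16, 7.27, 6.90 and 6.90, with a day 6 difference of only 0.63 counted from the floor), the neurofilament gene Nefl (7.55, 8.64, 8.53 and 8.15), Plet1 (9.69, 10.73, 10.63 and 10.19) and the homeobox gene Nkx2-9 (7.85, 8.96, 7.85 and 8.90). Each had a gap to the next array of 0.63 or less, so they resemble Fmn2 and not the other 9. Mir669h, a small RNA gene, had a gap of 1.41. It and the clone-named gene AI506816 make up the 7.

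Genes close to the threshold show that the set has no sharp edge. Of the 10, those just inside were Nrp2 (day 6 difference 1.10), Alox15 (1.11) and Fndc4 and Sema6a (both 1.21), and of the other genes with the pattern AI506816 and Plet1 (both 1.04), Nefl (1.10), Nkx2-9 (1.11) and Bcl11b (1.11). Just outside were the Notch ligand gene Jag2 (0.99), Prom1, which encodes the surface marker CD133 (0.96, below the floor on all arrays but the Sumo2-labelled one), Sema3e (0.95), Mroh6 (0.95) and the junctophilin gene Jph1 (0.95).

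**Figure D4:**
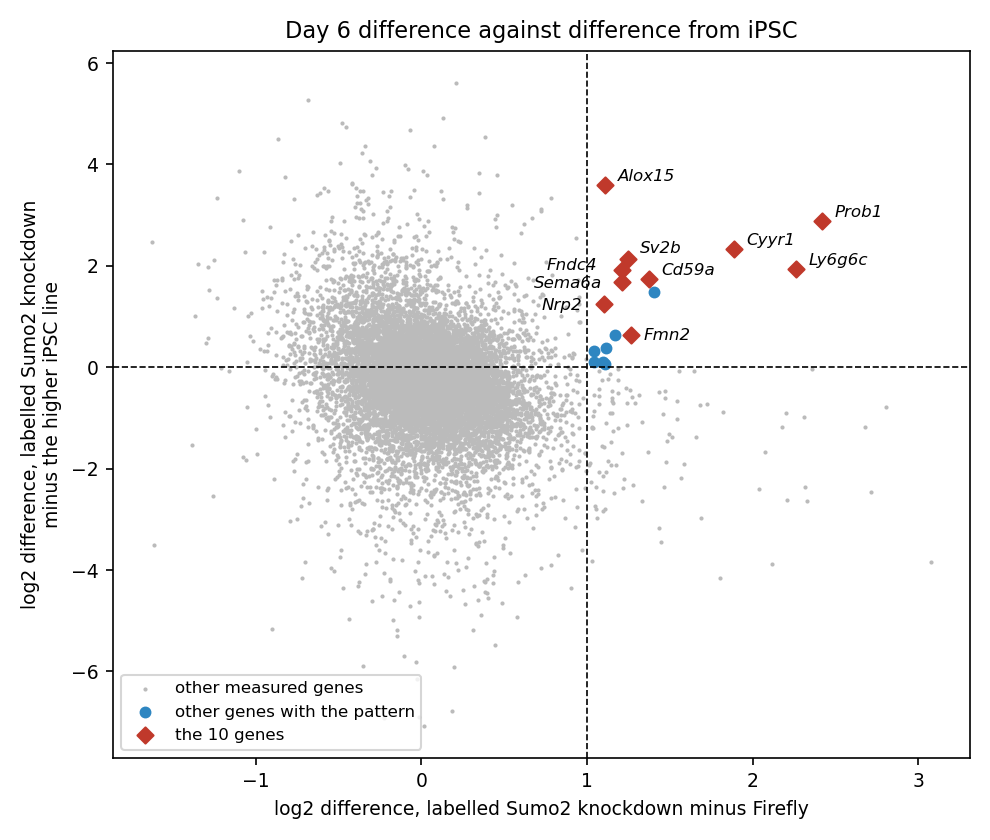
For each of 12735 measured genes, the log2 difference of the Sumo2-labelled minus the Firefly array (x axis) against that of the Sumo2-labelled array minus the higher iPSC line (y axis); dashed lines mark 2-fold on x and no difference on y. The 10 genes (red) and the 7 others (blue) fill the upper right corner, and most genes right of the 2-fold line lie below the horizontal one.

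Likeness to the set was measured as the Euclidean distance, over the 4 arrays, between a gene's mean-centred log2 values and the median centred profile of the 10 (0.01, 1.44, -0.77 and -0.67 for Firefly, Sumo2-labelled, 38 h and 10 day). Nearest to it within the set was Sv2b (0.17), whose low values rest on background, then Cyyr1 (0.33) and Fndc4 (0.34). Farthest as read were Alox15 (1.82), whose iPSC values also rest on background, and Fmn2 (1.37). The nearest measured genes outside were Trim9 (6.87, 7.65, 5.81 and 5.84, distance 0.46), the neurotrophin receptor gene Ngfr (8.99, 9.93, 7.66 and 8.20, distance 0.47), Lratd1 (distance 0.55), Tmem130 (distance 0.56) and the synuclein gene Sncg (distance 0.58). All 5 missed 2-fold at day 6. Trim9, Lratd1 and Tmem130 lay below the floor in both lines, so their distances and this order rest partly on background.

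Genes near the 10 were looked at as well, up to 4 genes away where those between were not measured. The nearest measured protein-coding gene on each side in RefSeq (GRCm38.p6) gave 20 neighbours, of which 0 differed by 2-fold at day 6, where 1.18% of all measured genes did. They ranged from -0.38 (Spata24, beside Prob1) to 0.42 (Ddah2, 2 genes from Ly6g6c), with a median of 0.05. App and Adamts1 on either side of Cyyr1 differed by -0.18 and 0.06.

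Other marker lists moved with the day 6 difference. In the Sumo2-labelled culture all 10 measured pluripotent cell markers read higher, 6 of them 2-fold (median log2 difference 1.85), and 13 of 14 epithelial markers, 8 of them 2-fold (median 1.23). All 14 fibroblast markers read lower, 0 by 2-fold (median -0.50). At day 6, Tdgf1, Dppa2, Esrrb, Lin28a, Grhl3, Dsp, Esrp1 and Ocln reached the floor only in the Sumo2-labelled culture. They could thus only read higher, and Twist2, which reached it only in Firefly, only lower. Counted from the floor, Esrp1 differed by 0.70, under 2-fold, and the others 2-fold higher stayed so. Of 15 pluripotent markers with a probe set, 5 lay below the floor in the Sumo2-labelled culture. Of the 14 pluripotent and 16 epithelial markers measured on any array, 0 and 0 were highest in that culture, while 15.7% of all 12735 measured genes were. Both lists hold genes that rise on the way to iPSC, so nothing is read from these counts. Mean log2 levels of the pluripotent list were 6.87, 8.15, 10.77 and 10.85 on the Firefly, Sumo2-labelled, 38 h and 10 day arrays, those of the epithelial list 7.09, 8.23, 8.96 and 9.09, and those of the fibroblast list 10.37, 9.89, 9.47 and 9.11. The pluripotent and epithelial lists thus had their highest means in the iPSC lines, and the fibroblast list in the Firefly culture. Fibroblast markers still read high in the lines, such as Vim (12.81 in 38 h and 12.72 in 10 day). Fn1 (12.98 and 12.89) and Fbln2 (10.71 and 10.59) read higher there than in both day 6 cultures, and no other measured fibroblast marker did. Dppa5a of the pluripotent list was below the floor in both lines. The part of these lists in the values of the 10 genes was not tested.

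Lists for other cell types that a culture could hold gave smaller differences. Of 7 measured neural and glial markers, 5 read higher and 2 lower, with Nefl 2-fold higher (median 0.36), and 3 of 9 measured on any array were highest in the Sumo2-labelled culture, beside 15.7% of all measured genes; nothing is read from so few. Mean levels of that list were 7.68, 8.07, 8.59 and 8.50. Of 11 such genes with a probe set, 5 lay below the floor in each day 6 culture. Medians were 0.31 for 5 trophoblast markers (1 of them, Tfap2c, 2-fold higher), 0.10 for 6 muscle markers, 0.02 for 3 keratinocyte markers, -0.08 for 5 blood and macrophage markers and -0.34 for 5 primitive endoderm markers. Of 11 blood and macrophage genes with a probe set, 8 lay below the floor in the Sumo2-labelled culture. Lyz2 of that list read 2-fold lower there (7.15 against 6.09), and counted from the floor its difference was -0.47. Of the 10 endothelial markers 8 lay below the floor in that culture. The part of these lists was not tested either.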

How the data were processed

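Total RNA of 4 samples was hybridised to 1 array each. The deposited values are log2 expression per probe set. Per the submitters' processing notes the authors used RMA (background correction, quantile normalization, summary over probes) and the software Affymetrix Expression Console. Versions, settings and the genome build are not given in the sources used here. No source states the base of the logarithm, and base 2 was taken from the range of 2.98 to 13.7. Quantile normalization hides a change of total RNA per cell, and RMA shrinks differences of dim probe sets. Precision is limited by having 4 arrays.

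The platform annotation pairs 23521 of 41345 probe sets with 1 gene symbol and 1814 with several, and lists none for 16010; the gene identifiers of all 10 genes matched RefSeq. A gene with several single-symbol probe sets was read from the one whose mean was highest. Since each group is 1 array, comparisons rest on a 2-fold difference in size and on no test. The caller was run on simulated arrays that shared 1 base level per gene and had no floor. That does not show how well it does on these arrays. The members and gene lists were chosen with earlier results of these data known. Named besides the members are other genes that met the pattern, the 5 just outside it, the 5 most alike and up to 3 genes per family list by size, with direct partners and genome neighbours added later. Predicted, clone-named, olfactory and vomeronasal receptor and small RNA genes were left out, except Mir669h and AI506816, named after their values were seen. Alternatives were cyclic loess (limma 3.58.1 in R 4.3.3), other filters on dim probe sets, values set to the floor, the median over probe sets and a 1.5-fold rule. Motifs were searched in RefSeq promoters; protein sequences were not used here. Analyses ran in Python 3.11.15 with pandas 2.3.3.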

Additional observations from a re-analysis of the deposited data

How the results depend on the processing

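All 10 genes kept the pattern (2-fold above Firefly, above both iPSC lines) after cyclic loess, without a filter and with the 1.5-fold rule. Setting values below the floor to it left 9, all but Sv2b, and the median over probe sets 9, all but Cyyr1. Asking for the floor on every array left 6, since Prob1, Sv2b, Sema6a and Alox15 fall below it on an iPSC array. Of 60 differences of the 10 genes between pairs of arrays, 60 stayed on their side of 2-fold after cyclic loess, 57 with the floor and 59 with the median over probe sets, and 0 that passed 2-fold changed sign.

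Counts over all genes moved by over 1.5 times under the rule of the floor on every array for the pattern (11 genes in place of 17), for 38 h against 10 day iPSC (78 higher and 167 lower in place of 121 and 258) and for Sumo2 lower than 10 day iPSC (1142 in place of 1739), since fewer genes are then tested. The 1.5-fold rule gave 115 genes with the pattern. It gave, higher and lower, 480 and 330 for Sumo2 against Firefly, 2084 and 3232 for Sumo2 against 38 h, 2104 and 3298 for Sumo2 against 10 day, 2366 and 3846 for Firefly against 38 h, 2405 and 3859 for Firefly against 10 day, and 483 and 757 for 38 h against 10 day. The other counts stayed within 1.5 times of theirs.

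No paired analysis was possible because each group holds 1 array, and for the same reason leaving out an array gives no value. A difference between single arrays carries the spread of 1 culture and 1 hybridisation, which these data do not measure. Signal below the floor limits Sv2b most: its difference from Firefly was 0.40 counted from the floor in place of 1.25.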
